A study of Mus musculus with 1016 samples.

Results

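The Peg3 imprinted domain of the mouse was defined by position, as the 2 Mb window from 6.2 to 8.2 Mb of chromosome 7 (GRCm38), with the genes Peg3, Zim1 and Usp29. Single-cell Repli-seq reads the replication state of each stretch of DNA in single S-phase cells, since replicated DNA yields more reads than DNA that is still to be copied. Of the 40 bins of 50 kb in the window, 20 had a replication state in every group, out of 46152 such bins among 49264 on chromosomes 1 to 19. The 20 measured bins run from chr7:6200001-7200000. The other 20, which hold the vomeronasal receptor genes of the window, have no state that all groups share, and the unmeasured stretch continues to 10100000. The domain was proposed with the contrasts of treated 2-cell embryos and of pronuclei in view, so every value here is a description and none is a test.

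States were available for 733 of 1016 labelled cells, and the 714 cells with a replication score (the share of a cell's called bins that are replicated) of 10 to 90% were used. There were 56 blastomeres of 2-cell embryos injected as zygotes, at 18 h after hCG, with 2 μg per μl Kdm5b mRNA. Embryos treated from 17 h after hCG with 0.1 mg per ml α-amanitin or 100 μM DRB gave 42 and 67 blastomeres of the 2-cell stage. Untreated embryos of the same cross, (C57BL/6J x CBA) females with DBA/2J males, gave 66 zygotes, 63 blastomeres of 2-cell, 55 of 4-cell, 56 of 8-cell and 40 of 16-cell embryos, 47 morula cells and 70 cells of the inner cell mass (ICM). Separated pronuclei were 21 maternal, with the (C57BL/6J x CBA)F1 genotype, and 17 paternal, with the DBA/2J genotype, at 21 to 25 h after hCG. A pronucleus was taken out by micromanipulation, and what was left of the zygote was collected with the other pronucleus in it, so the maternal and paternal groups share zygotes. Parthenotes, (C57BL/6J x CBA)F1 oocytes activated with 10 mM strontium and so without a paternal genome, numbered 57, at 5.5 to 12 h after activation. Zygotes from in vitro fertilization (IVF) also numbered 57, from 5.5 h after insemination. Zygotes, 2-cell embryos and treated embryos were collected at 20 to 26 h, 32 to 40 h and 34 to 40 h after hCG, and later stages at 50 to 56 h (4-cell), 66 to 72 h (8-cell), 77 to 80 h (16-cell), 90 to 96 h (morula) and from 96 h (ICM). No mock-injected group was among the samples. The labels tie no cell to an embryo, mother or culture. Each group was therefore treated as 1 sample, and intervals cover counting error only.

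Imprinted genes are expressed from only the maternal or only the paternal copy, according to DNA methylation set in the germ line. Peg3 encodes a zinc finger protein, and Usp29, which starts next to it on the opposite strand, encodes a protein of the ubiquitin-specific protease family. Both are known to be expressed from the paternal copy, while Zim1, a zinc finger gene on the other side of Peg3, is known as maternally expressed. The stretch between the starts of Peg3 and Usp29 belongs to the control region of the domain, which carries methylation on the maternal copy. α-Amanitin blocks RNA polymerase II, DRB blocks its elongation, and KDM5B removes methyl groups from lysine 4 of histone H3. Early replication is in many cell types a property of transcribed DNA.

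The starts of the 3 genes lie close together and were read from RefSeq (GRCm38.p6), since they place the members within the bins. Peg3 lies at chr7:6703892-6730431 on the minus strand, Zim1 at chr7:6671269-6696450 on the minus strand and Usp29 at chr7:6730578-6967219 on the plus strand (GENCODE annotation). The 96 bases between the RefSeq starts of Peg3 and Usp29, chr7:6730463-6730558, and the 142 bases before the Zim1 start, chr7:6696541-6696682, are printed on the minus strand, with CG dinucleotides, the sites of DNA methylation, in capitals.
Peg3 to Usp29: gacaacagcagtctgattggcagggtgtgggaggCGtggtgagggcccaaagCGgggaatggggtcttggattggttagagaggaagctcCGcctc
Zim1: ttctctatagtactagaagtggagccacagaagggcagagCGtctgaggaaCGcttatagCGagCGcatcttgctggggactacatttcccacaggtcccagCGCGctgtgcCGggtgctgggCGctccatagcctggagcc
The first holds 3 CG dinucleotides and the second 8. In the 300 bases around each start, the CG count was 13 for Peg3, 17 for Usp29 and 20 for Zim1, against a median of 7 over 32851 promoters of that length, of which 94.6% held at least 1. At least as many as Peg3 were found in 37.9% of promoters, as Usp29 in 31.4% and as Zim1 in 26.5%. DNA methylation itself was not measured.

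Peg3 occupies 1 bin, chr7:6700001-6750000, which it shares with the first of the 6 bins of Usp29, and Zim1 occupies the bin before it. The values of neighbouring bins are not separate measurements, because reads had been smoothed by a running median of 15 bins (750 kb) before states were called. The unmeasured stretch begins 450 kb after the Peg3 bin. In a diploid cell a state describes both parental copies together, so no allele can be read outside the pronuclei and parthenotes. Replication timing (RT) corrects for cells being at different points of S phase. For 16 overlapping ranges of the replication score, the share of cells in which a bin was replicated was taken, and RT, their mean, runs from 0 (late) to 1 (early).

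A pair of cells from different groups was nearly identical in 2 cases, more alike than any pair of cells within a group (highest correlation across bins 0.748). A 2-cell cell of 35 h and a zygote of 25 h had the same state in 94.3% of bins, with Peg3 unreplicated in both. An 8-cell cell of 67 h, with Peg3 replicated, and a KDM5B cell of 38 h, without, had the same state in 94.6%. Without these 4 cells, RT at Peg3 was 0.661 in KDM5B embryos, against 0.307 in untreated 2-cell embryos. The 8-cell stage then had 0.615 and zygotes 0.504. The cause was not tested.

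At the 2-cell stage, the Peg3 bin was replicated in 37 of 56 KDM5B cells (66.1%, exact 95% interval 52.2 to 78.2%), 28 of 42 α-amanitin cells (66.7%, 50.5 to 80.4%) and 33 of 67 DRB cells (49.3%, 36.8 to 61.8%), against 19 of 63 untreated cells (30.2%, 19.2 to 43%). RT was 0.646 with KDM5B, 0.673 with α-amanitin and 0.393 with DRB, against 0.304 in untreated 2-cell embryos. The intervals of the KDM5B and α-amanitin shares lie wholly above that of the untreated share, and that of DRB overlaps it. The 3 treated groups share their untreated cells. The deposited states of untreated, α-amanitin and DRB cells carry different dates, and those of KDM5B cells also form a set apart from the untreated ones. Treatment therefore coincides with the set of states in all 3 comparisons. What the dates mark is not stated, and a difference between sets was not tested. By RT, the 14 groups ran from untreated 2-cell embryos, maternal pronuclei, DRB, parthenotes, paternal pronuclei, zygotes, IVF zygotes, ICM, 4-cell, 16-cell, morula and 8-cell embryos to KDM5B and α-amanitin. The intervals of the share overlap between all neighbours in this order, as the plot of shares by group shows.

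**Figure D1:**
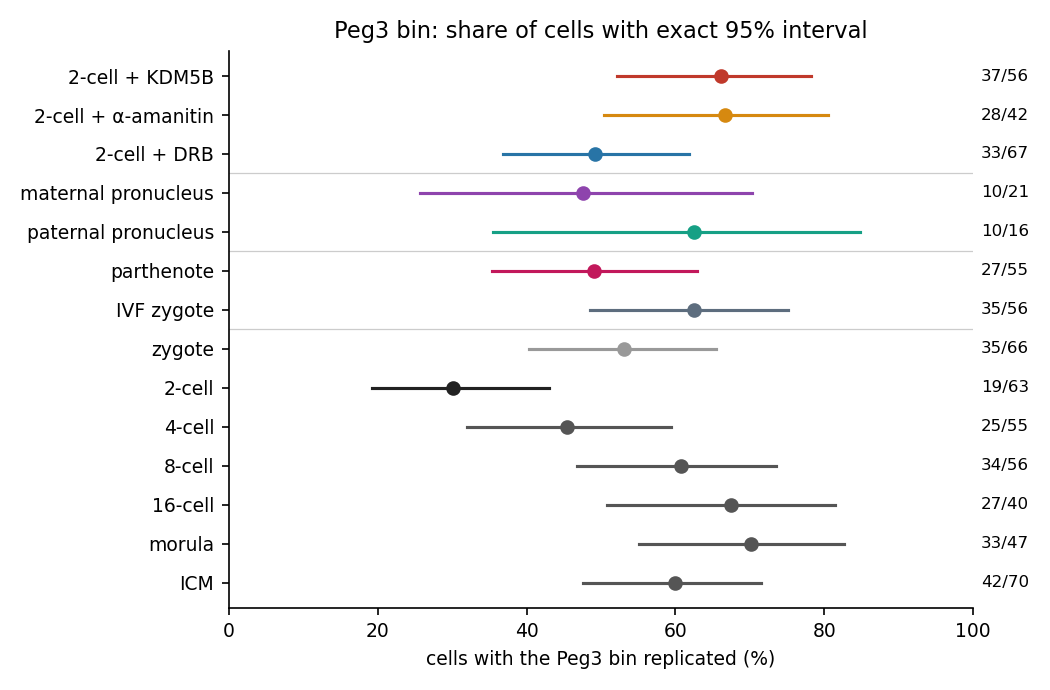
Share of cells with the Peg3 bin replicated, in percent, in each group (points) with its exact 95% interval (lines), and cells replicated over cells called at the right. The untreated 2-cell group, with 19 of 63 cells, has the lowest share.

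KDM5B embryos replicated Peg3 earlier by 0.34 in RT, and the share of cells differed by 35.9 percentage points (Newcombe 95% interval 18.0 to 50.7). Of all 46152 bins, 28 had a larger difference, and the median bin differed by 0.01. Zim1 was earlier by 0.30, with 37 of 56 KDM5B cells against 22 of 63 untreated cells. Usp29 was earlier by 0.29, at 0.498 in KDM5B and 0.207 in 2-cell embryos over its 6 bins. All 3 members were earlier by a similar amount, and Peg3 and Zim1 had the same state in every KDM5B cell. Their bins span less than the 750 kb of the running median, so these are not separate results. At the threshold of 0.2, 14 of the 20 window bins were earlier and 0 were later, where 1.44% of all bins were earlier and 1.0% later. The closest bin inside the threshold differed by 0.209 and the closest outside by 0.192. The 12 bins from 6600001 to 7200000 formed an unbroken run, with its highest difference in the Peg3 bin and its end at the unmeasured stretch.

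With α-amanitin, Peg3 was earlier by 0.37 in RT and by 36.5 points in the share of cells (17.1 to 52.3), and 14 of 46152 bins had a larger difference. Zim1 was earlier by 0.31, with 27 of 42 treated against 22 of 63 untreated cells. Usp29 was earlier by 0.35, at 0.554 with α-amanitin, against 0.207. In the window 12 of 20 bins were earlier and 0 later, against 3.87% of all bins earlier and 3.42% later, and they were the same 12 bins from 6600001 to 7200000. The smallest difference inside the threshold was 0.228 and the largest outside was 0.197. The bins at the start of the window differed little, with 14 of 42 treated and 16 of 63 untreated cells replicated in the first bin, where KDM5B had 27 of 56.

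DRB gave smaller differences of the same sign, 0.09 at Peg3, 0.10 at Zim1 and 0.07 at Usp29. The share of cells at Peg3 was 19.1 points higher (2.26 to 34.4), which is more than the RT difference, and DRB cells also had higher replication scores, with a median of 58.7% against 50.2% in untreated cells. No window bin was past 0.2, where 4.42% of all bins were earlier and 1.36% later, and 11986 bins had a larger difference than Peg3. The largest difference in the window was 0.124. The profile along the window shows KDM5B and α-amanitin above DRB and untreated embryos over Peg3.

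**Figure D2:**
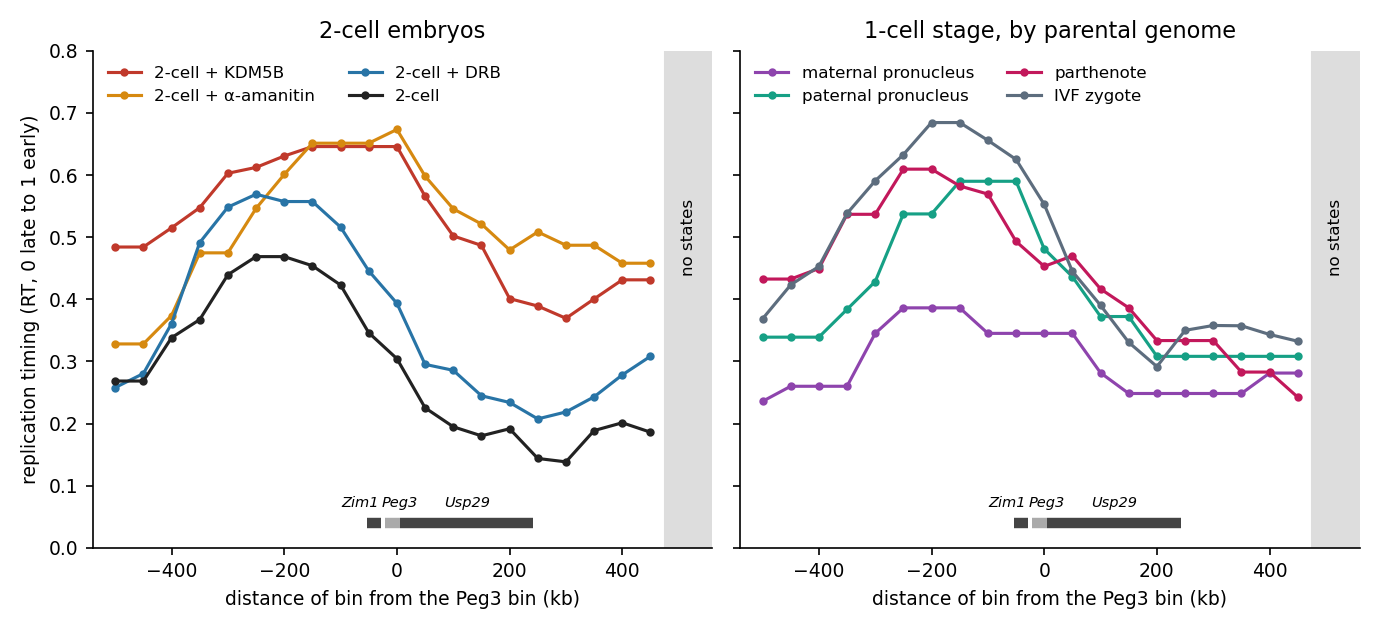
RT (0 late to 1 early) of the 20 measured window bins by distance from the Peg3 bin in kb, for 2-cell groups (left) and 1-cell groups (right), with the 3 genes as bars. Over Peg3, KDM5B (0.646) and α-amanitin (0.673) lie above DRB (0.393) and untreated 2-cell embryos (0.304), and maternal pronuclei (0.345) lie below paternal pronuclei (0.481).

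The domain was late in untreated 2-cell embryos, where the mean RT of the 20 bins, 0.290, was above only 4.59% of 44230 windows of 20 contiguous bins. In KDM5B embryos the mean was 0.522, at the 48.7 percentile, and with α-amanitin 0.515, at the 46.4 percentile, so that the domain stood near the middle of the genome in both. With DRB it was 0.365, at the 17.3 percentile. The 2 Mb before the window, with 21 measured bins, differed less from untreated embryos, on average by 0.0978 with KDM5B, 0.0802 with α-amanitin and 0.0239 with DRB, while the window differed by 0.232, 0.225 and 0.0748. The next 14 measured bins after the window differed by 0.121, 0.154 and 0.0133.

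**Figure D3:**
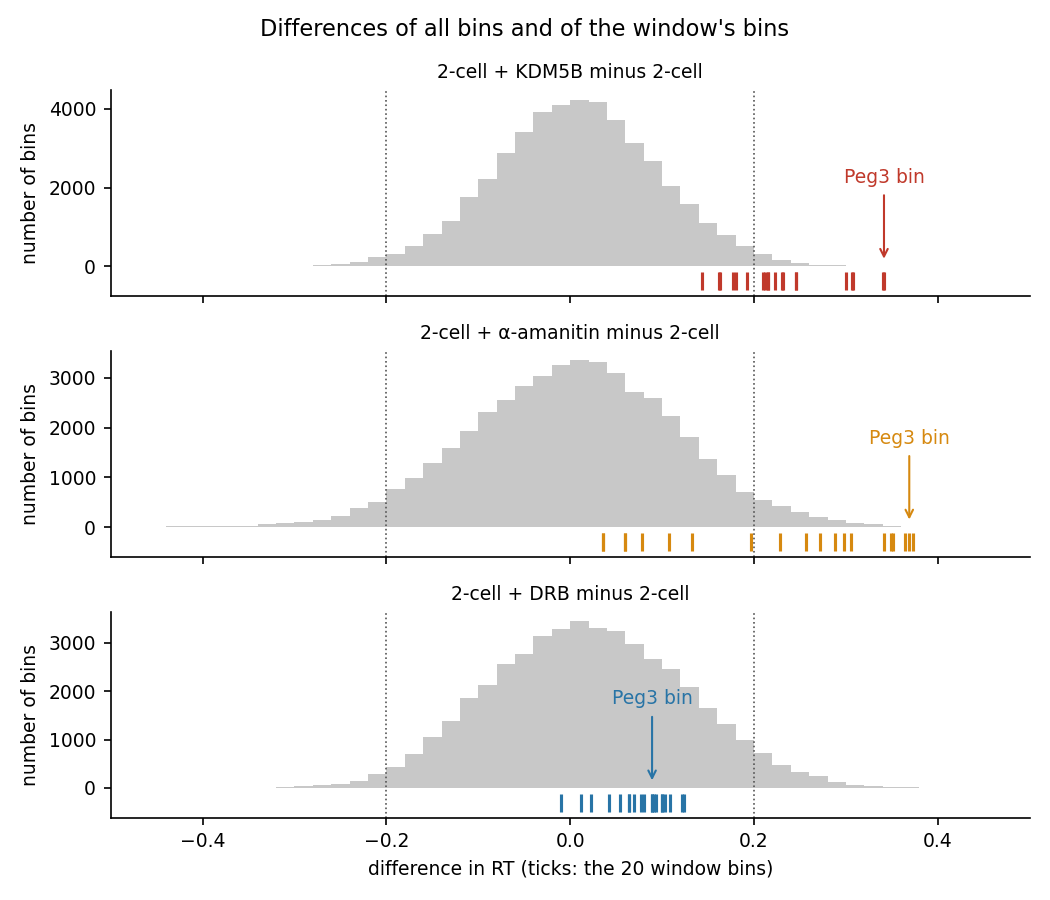
Number of bins by difference in RT from untreated 2-cell embryos for KDM5B, α-amanitin and DRB, with the 20 window bins as ticks, the Peg3 bin as an arrow and the thresholds of −0.2 and 0.2 as dotted lines. Peg3 lies at 0.34, 0.37 and 0.09.

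The share at Peg3 was higher with KDM5B and α-amanitin in cells early in S phase as well as later. Among cells with a score of 10 to 40%, Peg3 was replicated in 6 of 12 KDM5B cells and 7 of 15 α-amanitin cells, against 2 of 20 untreated cells, and in 1 of 9 DRB cells. At scores of 40 to 60% the counts were 11 of 18 for KDM5B, 9 of 14 for α-amanitin and 11 of 26 for DRB, against 10 of 29 untreated. At 60 to 90% they were 20 of 26, 12 of 13 and 21 of 32, against 7 of 14 untreated. The KDM5B and α-amanitin shares were above the untreated one in all 3 ranges, while DRB was close to it at low scores. Even so, cells with and without replicated Peg3 overlapped widely in score within each group, with medians of 60.8 and 49.5% in KDM5B cells, 58 and 38.5% in α-amanitin cells, 63 and 54.9% in DRB cells and 57.9 and 45.9% in untreated cells.

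**Figure D4:**
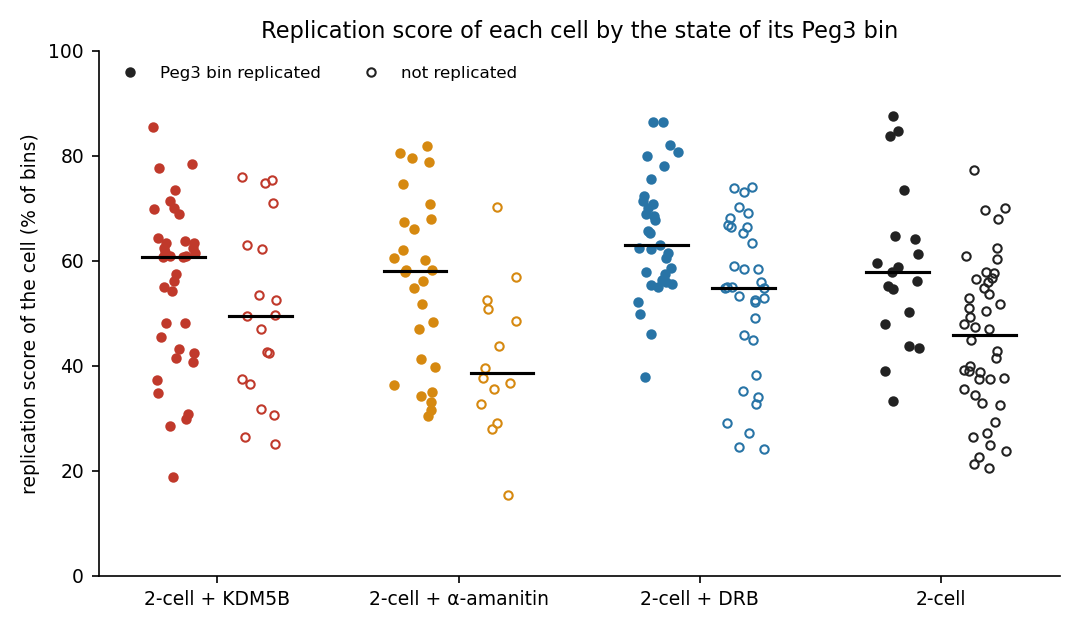
Replication score (percent of called bins) of each 2-cell-stage cell with the Peg3 bin replicated (filled) or not (open), by group, with medians as lines. Untreated cells have 19 filled and 44 open points, KDM5B cells 37 and 19.

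Collection hours differed between the groups. Over the 4 hours that KDM5B and untreated cells share (37 to 40 h), Peg3 was replicated in 24 of 35 KDM5B cells (68.6%), against 10 of 28 untreated cells (35.7%), and RT was 0.650 against 0.294. For α-amanitin the 4 shared hours from 35 to 39 h gave 16 of 26 cells (61.5%), against 13 of 43 (30.2%). Their RT difference of 0.27 was smaller than that over all hours. For DRB the 5 shared hours gave 26 of 52 cells, against 14 of 49 (28.6%). Over hours with at least 5 cells, the lowest and highest counts were 10 of 17 and 4 of 5 in KDM5B embryos, 3 of 6 and 9 of 13 with α-amanitin and 2 of 8 and 5 of 8 with DRB, against 1 of 6 and 4 of 8 in untreated embryos. At 35 h, which has the most untreated cells, 4 of 21 were replicated, with a median score of 38.9%.

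In separated pronuclei, Peg3 was replicated in 10 of 21 maternal (47.6%, 25.7 to 70.2%) and 10 of 16 paternal pronuclei (62.5%, 35.4 to 84.8%), and RT was 0.345 in maternal and 0.481 in paternal pronuclei. The intervals overlap over most of their length, and they treat pronuclei as independent although zygotes gave a pair. The difference in RT was −0.14 and that in the share −14.9 points (−42.0 to 16.3), and 18.6% of all bins had a lower difference. Zim1 differed more, with 10 of 21 maternal and 12 of 16 paternal pronuclei replicated and RT of 0.345 and 0.590, a difference of −0.24. The bins of Usp29 averaged 0.286 in maternal and 0.380 in paternal pronuclei. All 20 bins were later in maternal pronuclei, with differences of −0.245 to −0.0269, and 3, the Zim1 bin and the pair before it, were past 0.2, where 9.79% of all bins were later and 12.1% earlier. The closest to the threshold were at sizes of 0.204 inside and 0.151 outside. Zim1 thus had a larger difference than Peg3 or Usp29, in the same direction. Its share differed by −27.4 points (−51.7 to 4.25). Against Peg3 the larger value rests on 2 paternal pronuclei with Zim1 but not Peg3 replicated.

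Scores also differed, with a median of 54.9% in maternal and 63.1% in paternal pronuclei. At 60 to 90%, Peg3 was replicated in 7 of 10 maternal and 8 of 9 paternal pronuclei, at 40 to 60% in 3 of 9 and 2 of 4, and at 10 to 40% in 0 of 2 and 0 of 3. Of 10 numbers that occur in both groups, 9 had a Peg3 state on both sides: 4 with both pronuclei replicated, 3 with only the maternal, 1 with only the paternal and 1 with neither. Restricted to these numbers, the sign turned, with RT higher by 0.05 in maternal pronuclei and 0 bins later by 0.2. Both pronuclei of a zygote were processed, but the labels do not say that a shared number marks a shared zygote, and scores of the same number differed by 3.23 to 39.6 points. The study moved pronuclei with the opposite parental genotype to the other group before its own comparison, and whether the deposited labels already contain this exchange is not stated.

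Parthenotes, which carry maternal copies only, replicated Peg3 in 27 of 55 cells (49.1%, 35.4 to 62.9%), against 35 of 56 IVF zygotes (62.5%, 48.5 to 75.1%). RT was 0.453 in parthenotes and 0.553 in IVF zygotes. The difference was −0.10 at Peg3 and −0.13 at Zim1, and the bins of Usp29 had 0.399 in parthenotes, against 0.393. The intervals overlap, and 0 of 20 bins were past 0.2, where 4.35% of all bins were later and 1.63% earlier. Hours count from activation in parthenotes and from insemination in IVF zygotes, so equal hours need not be equal times in S phase. Over the 6 collection hours both groups share, 13 of 29 parthenotes (44.8%) and 35 of 56 IVF zygotes (62.5%) had Peg3 replicated, and the RT difference was larger, −0.173. Parthenotes of 10 h after activation gave 5 of 6 cells with a median score of 76.5%, and those of 12 h gave 3 of 6 with 45.6%. In the 2 Mb before the window the sign was the opposite, with parthenotes higher by 0.152 on average.

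During development, RT at Peg3 was 0.497 in zygotes, 0.304 in 2-cell, 0.568 in 4-cell, 0.629 in 8-cell and 0.585 in 16-cell embryos, 0.606 in morulae and 0.562 in the ICM. The 2-cell stage was the lowest of the 7 stages for Peg3, Zim1 and Usp29, and the 8-cell stage the highest. The 8-cell rank rests on 67 h. Without that hour Peg3 had 0.568 and Zim1 0.616, below their 0.606 and 0.651 in morulae, and Usp29 had 0.514, below its 0.557 in 16-cell embryos. As raw shares, morulae were highest at Peg3. The share of cells with Peg3 replicated was 53% in zygotes, 30.2, 45.5, 60.7 and 67.5% from 2-cell to 16-cell embryos, 70.2% in morulae and 42 of 70 cells in the ICM. Relative to the median bin of the same stage, Peg3 was later by 0.21 at the 2-cell stage, by 0.04 in zygotes, and earlier by 0.02 to 0.11 from the 4-cell stage on. Zim1 was earlier than Peg3 at every stage, and the mean over the bins of Usp29, which include the Peg3 bin, was later. Single bins did not all follow this order, since at the 8-cell stage the highest Usp29 bin had 0.645, above Peg3 at 0.629.

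**Figure D5:**
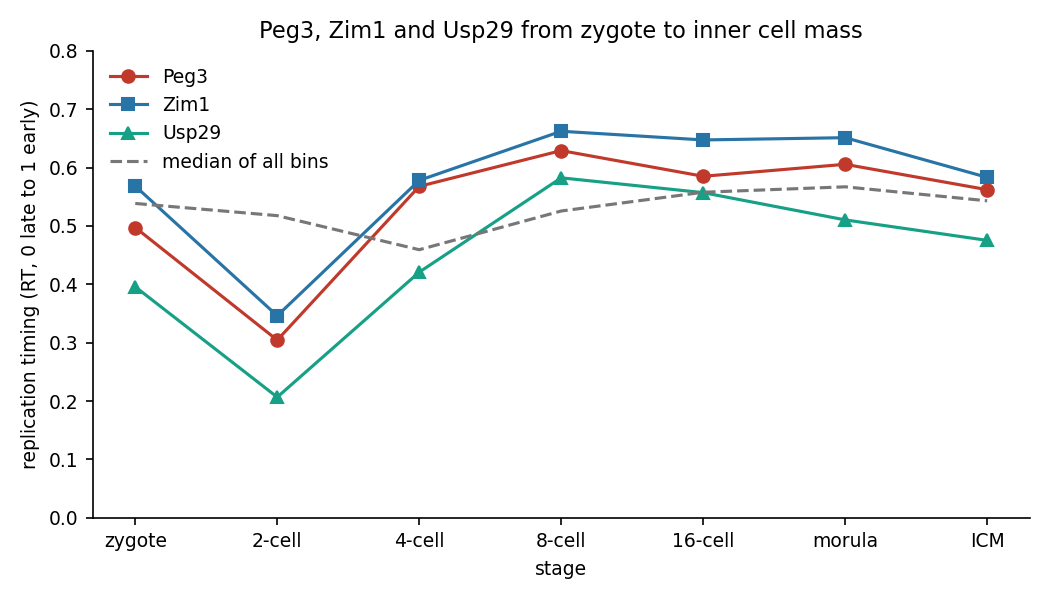
RT (0 late to 1 early) of Peg3, Zim1 and Usp29 at the 7 stages with the median of all bins as a dashed line. All 3 genes are lowest at the 2-cell stage, where Peg3 has 0.304.

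Between the 2-cell stage and zygotes, the difference at Peg3 was −0.19 (share −22.9 points, −38.1 to −5.85), with −0.22 at Zim1 and −0.19 at Usp29, and 3 of 20 bins were later by 0.2, where 2.66% of all bins were later and 1.67% earlier. The nearest sizes were 0.194 outside and 0.221 inside, so that Peg3 lay just outside the threshold. Between the 4-cell and the 2-cell stage Peg3 was earlier by 0.26 and 14 of 20 bins passed 0.2, against 5.49% of all bins earlier and 7.89% later, with 0.202 as the nearest inside and 0.172 outside. In the raw share of cells this step was smaller, 15.3 points (−2.12 to 31.7), and 4-cell cells had a median score of only 40.6%. As raw shares, 4 of the 20 bins were past 0.2. The 2 Mb before the window was also earlier at the 4-cell stage, with 18 of its 21 measured bins past 0.2. The next measured stretch after the window went the other way, with a mean difference of −0.102. Between later neighbouring stages the differences at Peg3 were 0.06, −0.04, 0.02 and −0.04, and all 4 intervals of the share include 0. Of the window bins, 2 of 20 were earlier in 8-cell than in 4-cell embryos, against 6.81% of all bins earlier and 3.19% later, and 0 without the 4 near-identical cells. The deposited states of 8-cell embryos carry a different date from those of 4-cell and 16-cell embryos. In 16-cell against 8-cell embryos 0 of 20 passed (2.62% of all bins earlier, 1.6% later), as in morulae against 16-cell embryos (2.18% and 2.07%) and in the ICM against morulae (12.1% and 13.2%). Morulae against 2-cell embryos gave 0.30 at Peg3 and 17 of 20 bins past 0.2, in a comparison where 23.7% of all bins were earlier and 21.1% later.

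The 16-cell value came from 2 collection times that differed. At 77 h Peg3 was replicated in 2 of 9 cells, with a median score of 31.1%, and at 80 h in 25 of 31, with a median score of 65.4%. RT from the 77 h cells alone was 0.349, and the 16-cell values above rest on the 80 h cells. Score ranges without a cell are left out of RT. A value from 9 cells of mostly low score is therefore not directly comparable with the others, and later timing at 77 h was not tested. At the 8-cell stage the share ran from 36.4% at 72 h (4 of 11 cells) to 81.3% at 67 h (13 of 16). The earlier ICM collection gave 22 of 33 cells and the later 20 of 37.

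The states of the 20 measured bins were also counted within single cells. Reads had been smoothed by a running median before states were called, so neighbouring bins tend to share a state. Other windows of the same length were not counted in this way. Whether the counts are particular to this domain was therefore not tested. Of 710 cells with all 20 bins called, 129 had the whole measured window replicated and 198 had none of it, together 46.1%. A single switch with the low-coordinate side replicated was seen in 185 cells and the reverse in 86, and 112 cells switched at least 2 times. Of the 185, 4-cell embryos gave 32, in 55 cells, and the order was not the same in all groups. In maternal pronuclei 3 cells had the low-coordinate side replicated and 4 the reverse, and in paternal pronuclei 2 had each. Averaged over the 14 groups, RT was highest at the olfactory receptor gene Olfr1350 (0.615) and lowest at the zinc finger gene Zfp418 (0.302), but the profiles differed. With α-amanitin the Peg3 bin was the highest of the window (0.673) and the first bin the lowest (0.328), while in 4-cell embryos the first bin was the highest (0.688). Zim1 alone was replicated in 29 of the 710 cells and Peg3 alone in 3, and in all others the pair had the same state, unreplicated in 286.

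The same counts described the treated embryos. The whole window was replicated in 15 of 56 KDM5B, 11 of 42 α-amanitin and 8 of 67 DRB cells, against 4 of 63 untreated cells. None of it was replicated in 16 of 56 KDM5B, 11 of 42 α-amanitin and 20 of 67 DRB cells, against 30 of 63 untreated cells. A single switch with the low-coordinate side replicated was seen in 9 KDM5B, 3 α-amanitin and 9 DRB cells, against 12 untreated cells, and the reverse in 7 KDM5B, 8 α-amanitin and 13 DRB cells, against 5 untreated cells. All 6 bins of Usp29 were replicated in 22 of 56 KDM5B, 19 of 42 α-amanitin and 19 of 67 DRB cells, against 7 of 63 untreated cells.

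The window overlaps 39 protein-coding genes, and 25 have a measured bin. The 8 olfactory receptor genes, on the low-coordinate side, were earlier by 0.144 to 0.192 with KDM5B and by 0.0352 to 0.197 with α-amanitin, and 0 of 8 passed 0.2 in either, where 1.41% and 1.51% of 19822 protein-coding genes were earlier. Of 10 measured zinc finger genes, Peg3 and Zim1 included, 6 passed 0.2 with KDM5B (range 0.177 to 0.341) and 5 with α-amanitin (0.0357 to 0.369), and 0 of 10 with DRB (−0.0105 to 0.124), where 5.26% of protein-coding genes were earlier. Since genes share bins, these counts describe stretches of the domain and not single genes. None of the 10 vomeronasal receptor genes had a state in all groups.

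The other imprinted genes give the setting for these values. Of 49 imprinted genes listed, 6 passed 0.2 with KDM5B and 6 with α-amanitin, and in both these were Peg3, Usp29, Zfp264, Zim1, Zim2 and Zim3, which lie in the window and share its bins. Of the 43 imprinted genes outside the window, 0 passed in either direction in either comparison. Of protein-coding genes 1.41% were earlier and 1.19% later with KDM5B, and 1.51% earlier and 6.93% later with α-amanitin, so that a count of 0 is near the background for earlier genes. The highest of them were Nap1l5 at 0.16 with KDM5B and Magel2 at 0.16 with α-amanitin. In the KDM5B comparison H19 had −0.12, Igf2 −0.15 and Kcnq1ot1 −0.12, at the domain on distal chromosome 7. Snrpn and Ube3a had 0.05 and −0.06, Dlk1 and Meg3 0.13 and 0.08, and Igf2r and Airn 0.01 and −0.02. The median over the 49 genes was 0.05 with KDM5B, against 0.01 for all protein-coding genes. With α-amanitin it was −0.000325, against −0.04, and Zrsr1 was lowest at −0.16. These medians include the 6 genes of the window. Over the 43 genes outside it they were 0.0403 with KDM5B and −0.0188 with α-amanitin.

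With DRB, 2 of the 49 imprinted genes passed 0.2, Sgce (0.22) and its neighbour Peg10, where 5.26% of protein-coding genes were earlier, and 12 had a larger difference than Peg3. In the pronuclei, 7 were later and 2 earlier in maternal pronuclei by 0.2, where 13.2% and 6.85% of protein-coding genes were, and the extremes were Dio3 at −0.57 and Peg10 at 0.33, both paternally expressed. Zim1 and Zim2, in the same bin, were 2 of the 7, and 33 of the 49 genes had a higher difference than Peg3. In parthenotes against IVF zygotes, 0 of 49 were earlier and 1, Mest at −0.21, was later, where 2.87% and 3.58% of protein-coding genes were. In morulae against 2-cell embryos 28 were earlier and 1 later, where 47.1% and 3.36% of protein-coding genes were, and 7 had a larger difference than Peg3.

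The protein-coding genes whose RT followed Peg3 most closely over the 14 groups, each taken relative to the group's median bin, were Fam184a on chromosome 10 (Pearson's r = 0.81), Camp on chromosome 9 (0.81), Skil on chromosome 3 (0.78), Yars2 on chromosome 16 (0.76) and Gpr171 on chromosome 3 (0.75). They were chosen as the highest of 19657 genes, with chromosome 7 below 15 Mb left out, and at most 1 gene per 2 Mb kept. All 14 groups share the smoothing of reads, and the 3 treated groups share a control. Fam184a had RT of 0.590 with KDM5B, 0.609 with α-amanitin and 0.583 with DRB, against 0.503 in untreated 2-cell embryos. Camp had 0.598, 0.539 and 0.217, against 0.289, and Skil 0.724, 0.730 and 0.654, against 0.492. Yars2 had 0.624, 0.510 and 0.430, against 0.385, and Gpr171 0.649, 0.616 and 0.526, against 0.438. All 5 were higher with KDM5B and α-amanitin than without, while with DRB Camp was lower and the other 4 higher. The choice used these same groups, so it favours genes that rise where Peg3 does. Their mean distances from Peg3, also relative to the median bin, were 0.0770 to 0.166 in RT.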

How the data were processed

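Per the study's methods, the authors mapped reads with Bowtie2 2.3.5 and kept mapping qualities of at least 20 (SAMtools 1.9). Counts per 50 kb bin (bedtools 2.29.0) were scaled within each cell and then to that bin's average in the stage, masked, smoothed by a running median of 15 bins and segmented, without G1 or G2 cells as a standard. Copy number that a whole stage has in common is therefore invisible. The deposited value is a binary state, averaged here to a fraction of cells. Read counts are not in these tables, so depth per cell was not used. The authors required 750000 reads. All 733 columns were mapped to samples. Of 714 cells, 52 are marked as failed in the authors' quality table, which covers 495 of them. They were kept, and leaving them out was an alternative. The table holds 63 of 63 untreated 2-cell cells, 8 of them failed, and 21 of 21 maternal pronuclei. It holds 0 of 56 KDM5B, 0 of 42 α-amanitin and 0 of 67 DRB cells, and 0 of 17 paternal pronuclei. In these comparisons the alternative could therefore drop only untreated cells or maternal pronuclei.

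RT followed the study's method, with 16 intervals 35 percentage points wide and 4.33 points apart. A difference of 0.2 counted as earlier or later. No test was run, since each group was treated as 1 sample. Shares have exact Clopper-Pearson intervals at 95% and their differences Newcombe intervals, both for counting error only. Other alternatives were raw shares, other score ranges and thresholds, shared hours, leaving out each hour, and differences relative to the median bin. The RT calculation was tested on simulated bins without smoothing or missing states, and the other steps were not tested this way. Software was Python 3.11.15, NumPy 2.4.6, pandas 2.3.3, SciPy 1.17.1, statsmodels 0.14.6 and Matplotlib 3.10.9. Genes named are Peg3, Zim1 and Usp29, the earliest and latest others of the window, 9 imprinted genes and the extremes of the imprinted list in 4 comparisons, and the 5 genes most like Peg3. The imprinted genes of the window past 0.2, Mest, Peg10 beside Sgce, and the highest outside the window were named after their values were seen. The members, lists and thresholds were chosen with earlier results of these data known.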

Additional observations from a re-analysis of the deposited data

How the results depend on the processing

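No paired analysis was possible because the labels do not say that pronuclei of the same number came from the same zygote, numbers in other groups name single cells, and no result comes from a test. At Peg3 no difference past 0.2 changed sign under any alternative run, and leaving out a collection hour in turn gave 0.318 to 0.361 for KDM5B, 0.332 to 0.401 for α-amanitin, 0.0656 to 0.117 for DRB and −0.140 to −0.0277 for parthenotes. The pronuclear difference became 0.0508 among numbers found in both groups. The 4-cell minus 2-cell difference was 0.153 as a raw share, so no longer past 0.2, and without failed cells the 2-cell minus zygote difference was −0.280, now past it. The 16-cell stage rested on 80 h. Without that hour its difference at Peg3 was −0.279 from the 8-cell stage, and morulae differed from it by 0.256. Leaving out an hour gave −0.279 to 0.0168 and −0.0342 to 0.256. The values without 80 h come from 9 cells with a median score of 31.1%. Score ranges without a cell are left out of RT, so these differences are not directly comparable with the others. At a threshold of 0.3, 4 window bins were earlier with KDM5B, 7 with α-amanitin and 0 later in maternal pronuclei. At 0.1, 5 were earlier with DRB and 9 later in maternal pronuclei, and raw shares gave 3 earlier bins with DRB. Leaving out an hour gave 10 to 17 bins for KDM5B and 11 to 13 for α-amanitin. Between stages the counts moved more. From 2-cell to 4-cell embryos 14 earlier bins became 4 as raw shares, 7 without 35 h of the 2-cell or without 53 or 54 h of the 4-cell stage, and 9 without 51 h. The 3 later bins of 2-cell against zygote became 10 without failed cells, 8 without zygotes of 21 h and 1 without those of 25 h or 2-cell embryos of 35 h, and all alternatives gave 0 to 11. The 2 earlier bins of 8-cell against 4-cell ranged from 0 to 9. Leaving out the near-identical cells was chosen after seeing the data. Depth per cell is not in the tables, and the number of cells, 16 paternal pronuclei at the least, limits each share.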
